A study of Mus musculus with 8 samples.

Results

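B2m and Tfrc are the 2 genes described here, each measured by 1 reference probe spotted 20 times on a mouse array, in the brainstem of DBA/1 mice. They were taken from the 15 probes on the array that carry a gene accession, out of 60915 probes that are neither controls nor named negatives. Both were picked because their intensity was higher in the SUDEP mice than in normal mice on these same arrays, so the differences between the groups are given as a description, with no test. DBA/1 is an inbred strain prone to sound-induced seizures that can end in respiratory arrest, and mice of this strain serve as a model of SUDEP, sudden death of a person with epilepsy that has no other found cause.

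RNA on the 8 arrays came from 4 male DBA/1 mice of the SUDEP model and 4 male normal DBA/1 mice, here called control, all aged 5 weeks and described by the labels as biological replicates. No genotype other than the strain is given for either group. How the SUDEP model was induced, what the control mice were exposed to and how soon after a seizure the tissue was taken are facts that the labels do not state. The labels call the source brain tissue and the series text calls it brainstem. Whole tissue was used, so more cells of a type and more RNA per cell cannot be told apart. The array codes in the file headers share 1 first number in all control mice and another in all SUDEP mice, so this code and the group cannot be told apart. The second number equals the replicate number.

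B2m encodes β2-microglobulin, the light chain that major histocompatibility complex (MHC) class I molecules need to fold and reach the cell surface, where they present peptides to CD8+ T cells. In brain, MHC class I is found on microglia, endothelium and some neurons, and interferons raise B2m in many cell types. Tfrc encodes the transferrin receptor, which carries transferrin-bound iron into cells and is abundant on the endothelium of brain capillaries and on dividing cells. When iron is short, iron regulatory proteins bind and stabilise its mRNA. The 2 proteins meet in a single complex: HFE, an MHC class I-like protein, pairs with β2-microglobulin and binds the transferrin receptor.

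The DNA around the start sites of both genes is shown to set the promoters of 2 genes that differed unequally beside each other. The sequences are from RefSeq, build GRCm38.p6, and run from 250 bases before to 50 bases from the start site onward, on the + strand, 5′ to 3′. Capitals in B2m mark matches to 3 motifs, namely GAAA followed by any 2 bases and GAAA again, GGGA followed by any 4 bases and CC, and CCAAT; capitals in Tfrc mark matches to CCAAT and ACGTG, each searched on both strands. The B2m window is chr2:122147437-122147736, and the Tfrc window, the upstream one of 2 in the table, is chr16:32608646-32608945.
B2m: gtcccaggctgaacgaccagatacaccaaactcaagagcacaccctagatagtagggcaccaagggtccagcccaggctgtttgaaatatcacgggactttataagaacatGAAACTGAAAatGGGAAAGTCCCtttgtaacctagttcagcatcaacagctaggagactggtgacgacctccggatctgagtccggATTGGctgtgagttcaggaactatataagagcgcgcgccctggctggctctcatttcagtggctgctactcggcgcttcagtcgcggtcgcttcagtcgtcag
Tfrc: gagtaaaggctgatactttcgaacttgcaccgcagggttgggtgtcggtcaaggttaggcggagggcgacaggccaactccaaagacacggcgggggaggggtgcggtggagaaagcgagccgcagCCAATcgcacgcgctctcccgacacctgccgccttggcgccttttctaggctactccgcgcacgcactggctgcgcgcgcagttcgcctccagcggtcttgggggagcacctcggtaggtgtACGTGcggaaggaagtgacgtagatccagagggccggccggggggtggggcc

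The B2m window held 1 match to the first motif, the core of interferon-stimulated response elements, with the letters GAAACTGAAA beginning 139 bases before the start site. It held the second motif, a form of the NF-κB site, beginning 127 bases before the start site (GGGAAAGTCC) and, on the other strand, 1 base further on. Of 32851 windows of 300 bases, 3.44% held the first and 20.7% the second. Neither stood in either Tfrc window. CCAAT, the letters of the CCAAT box, stood in reverse 53 bases before the B2m start and in forward orientation 124 bases before the upstream Tfrc start, and 37.4% of windows held it. ACGTG, the core of hypoxia response elements, which is also part of the E-box CACGTG, stood in both Tfrc windows, which overlap and share this 1 match, and not in that of B2m, against 19.6% of all windows. TGACG, the cyclic AMP response element core, which can share letters with ACGTG, had 2 matches in the B2m window and 1 in the upstream Tfrc window (20.8% of windows). TATAA was found on both strands near 150 bases before the B2m start and again 30 bases before it, not in the upstream Tfrc window (24.9% of windows). These are matches of letters only.

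B2m stood higher in each SUDEP mouse than in any control mouse. Processed intensity is a background-subtracted brightness in scanner units, given here as the geometric mean over the spots not marked as outliers. Before any scaling, that of B2m was 2531, 2168, 2113 and 2211 in control mice 1 to 4. In SUDEP mice 1 to 4 it was 3297, 3729, 3637 and 4236. The lowest SUDEP mouse thus lay above the brightest control mouse before arrays were made comparable. The mean was 2256 ± 188 over the control mice and 3725 ± 388 over the SUDEP mice (SD, n = 4 each).

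To compare arrays, the log2 intensity of a probe was taken relative to the array's own 75th percentile, so that a value of 0 is that percentile. On this scale B2m was at 2.47, 2.25, 2.55 and 2.64 in control mice 1 to 4. In the SUDEP mice it was at 3.23, 3.30, 3.31 and 3.57. SUDEP 4 was the highest of the 8 and control 2 the lowest, and the gap between the groups, from SUDEP 1 down to control 4, was 0.59. The difference of the group means was 0.88 (SE 0.12, half-width of the 95% interval 0.26), or 1.83-fold. All 16 SUDEP-control pairs of mice ran the same way. Of 49297 probes tested, 2.51% had all 4 SUDEP values above all 4 control values, and 0.274% (135 probes) had a difference at least as large as that of B2m. B2m was picked from these arrays, so nothing is read from these shares.

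Tfrc differed less between the groups, and the groups overlapped. Its unscaled intensity, again a geometric mean over unmarked spots, was 9392, 8931, 9518 and 8777 in control mice 1 to 4. In SUDEP mice 1 to 4 it was 11255, 10400.3, 9353 and 10077. SUDEP 3 lay below control 1 and control 3, so that 14 of 16 pairs had the SUDEP mouse higher. The mean was 9155 ± 356 over the control mice and 10271 ± 788 over the SUDEP mice (SD, n = 4 each).

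Relative to the 75th percentile, Tfrc was at a log2 value of 4.36, 4.30, 4.72 and 4.63 in control mice 1 to 4. In the SUDEP mice it was at 5.00, 4.78, 4.68 and 4.82. SUDEP 1 was highest, and SUDEP 3 lay between control 3 and control 4, so that 15 of 16 pairs had the SUDEP mouse higher. The mean was 4.50 ± 0.21 over the control mice and 4.82 ± 0.13 over the SUDEP mice (SD, n = 4 each). The difference was 0.32 (SE 0.12, half-width of the 95% interval 0.28), or 1.25-fold, and 3.79% of tested probes (1869) had a difference as large or larger. Tfrc was picked for its rise on these arrays, so where an interval lies against 0 is a description and no test. With 75th percentile scaling the interval lay just above 0. It included 0 without scaling (0.16, half-width 0.26) and with the 75th percentile as a covariate (0.16, half-width 0.24). The same was so without control 1 and 2 together (0.14, half-width 0.28), and when control 1, control 2, SUDEP 1 or SUDEP 4 alone was left out. In the other processing alternatives the interval stayed above 0. It did so barely with scaling on the other 13 reference genes (0.2609, half-width 0.2604) and with a replicate block (0.3180, half-width 0.3177). With quantile or cyclic loess scaling the 4 SUDEP values all lay above the control values (log2 difference 0.35 and 0.33). The same order was found in 2.61% and 2.68% of tested probes under these 2 scalings. With median scaling or no scaling, 14 of 16 pairs had the SUDEP mouse higher for Tfrc.

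**Figure D1:**
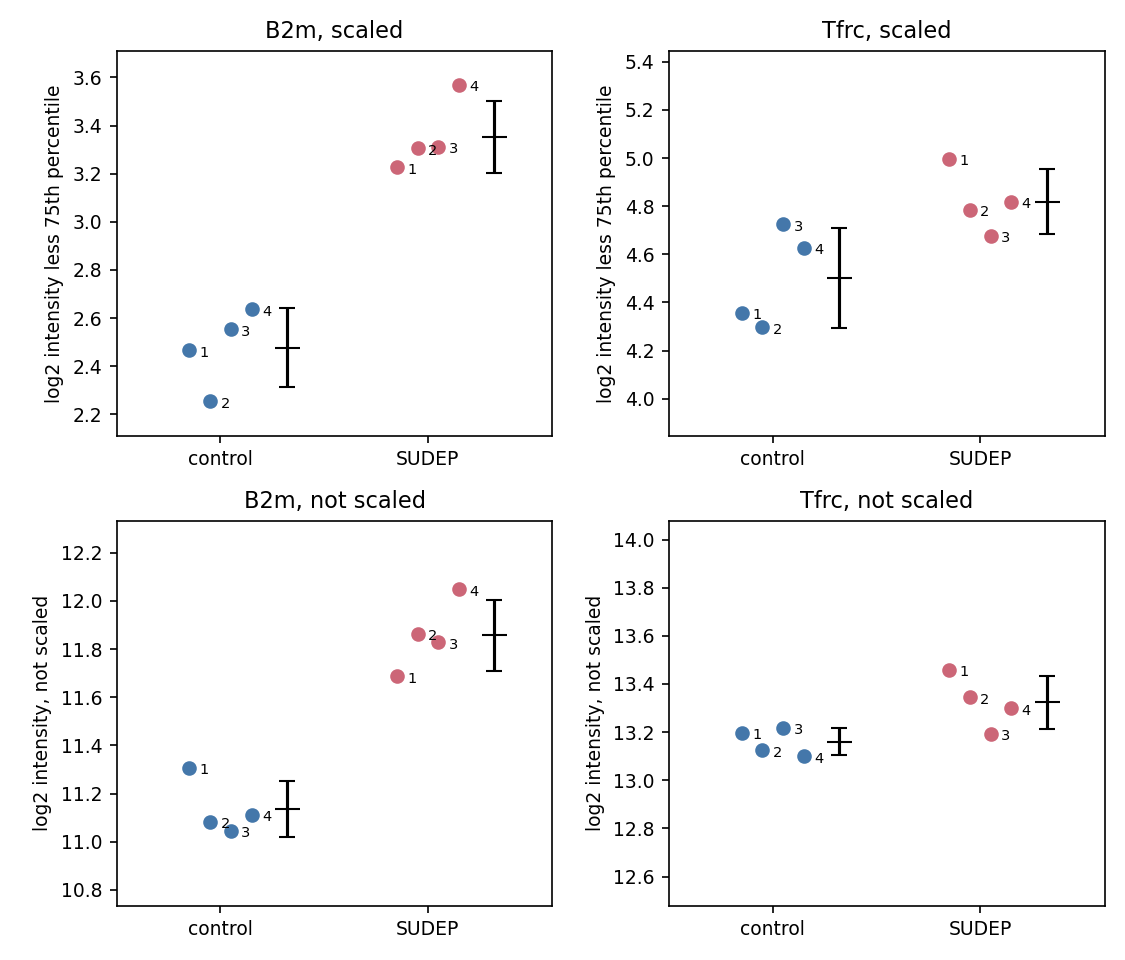
Log2 intensity of B2m (left) and Tfrc (right) in each of the 8 mice, relative to the array's 75th percentile (top) and unscaled (bottom); each point is 1 mouse with its replicate number, bars give the mean and SD of 4 mice, and all panels span the same range. The B2m groups stay apart in both rows, while the Tfrc groups overlap and control 1 and 2 fall below control 3 and 4 only after scaling.

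Among control mice, the 2 brighter arrays had the lower scaled values of both genes. The 75th percentile was 458 and 455 in control 1 and 2, and between 352 and 377 in the other 6 arrays. Control 1 and 2 were also the 2 lowest control mice in both genes after scaling. For Tfrc the SD between control mice was 0.06 unscaled and 0.21 scaled, and for B2m it was 0.12 and 0.16. The median probe went the other way, from 0.27 unscaled to 0.20 scaled, and 5 of the other 13 reference genes had a smaller control SD unscaled. Without scaling the differences between the groups were 0.72 for B2m and 0.16 for Tfrc, while the median difference of all tested probes was -0.15, against 0.01 with scaling. Relative to that median they were 0.87 and 0.31. Without control 1 and 2 the scaled difference was 0.76 for B2m and 0.14 for Tfrc, and with the 75th percentile as a covariate 0.77 and 0.16. The Tfrc difference thus became smaller by more than 1.5 times in each of the last 2 settings, and that of B2m did not. The part of brightness in either difference was not tested.

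The order of the 8 mice was not the same for the 2 genes. For B2m the closest neighbours were SUDEP 3 and SUDEP 2, 0.01 apart, which is 0.515 times the SE of that gap as computed from the spots. The other B2m neighbours were 5.20 or more such SEs apart. For Tfrc the run from SUDEP 4 through SUDEP 2, control 3 and SUDEP 3 to control 4 had gaps of 0.03 to 0.06. Each of these was smaller than the larger of the neighbours' SDs between spots and 2.44 to 3.42 times its SE. Such an SE covers only the spread between spots, not that between mice. SUDEP 1 was the highest mouse for Tfrc and the lowest SUDEP mouse for B2m. The SUDEP 1 array also had the smallest share of probes well above background, 74.5% against 78.8% to 83.3% on the others. The part of this in its place in either order was not tested.

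The log2 ratio of B2m to Tfrc within an array is the same unscaled as relative to the 75th percentile, and it was higher in each SUDEP mouse than in any control mouse. Since the brightness of different probes cannot be compared, only its differences between mice have a meaning. It was -1.89, -2.04, -2.17 and -1.99 in control mice 1 to 4. In the SUDEP mice it was -1.77, -1.48, -1.36 and -1.25. SUDEP 1 lay nearest to the control mice. The difference of the group means was 0.56, a 1.47-fold change of B2m relative to Tfrc. The 2 genes therefore differed unequally between the groups on the same arrays, and which of them accounts for it a ratio cannot show.

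Repeated spots gave the technical spread of each value. Over all 20 spots of an array, marked ones included, the SD of log2 intensity was 0.02 to 0.06 for B2m (median 0.04 over the arrays) and 0.04 to 0.07 for Tfrc (median 0.05). The pooled SD between mice of a group was 0.16 for B2m and 0.17 for Tfrc, 3.85 and 3.23 times the median SD between spots. Every B2m and Tfrc spot was well above background on every array, and no spot was saturated. Spots of 1 array share 1 RNA sample and are not replicates of a condition.

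Spot by spot, the B2m groups did not overlap at any of the 20 positions when spots marked by the scanner software as outliers were kept, with log2 differences of 0.81 to 0.94. The Tfrc difference was above 0 at all 20 positions, between 0.21 and 0.37, but the groups were apart at only 5 of them. Among the other reference genes, Actb, G6pd2, Gusb, Nono and Tuba1b also had a difference above 0 at all 20 positions. Their groups were apart at none. The software had marked 11 of 160 Tfrc spot values and 4 of 160 B2m spot values as outliers, either non-uniform or far from the other spots of the probe. Of the 11, 8 were on the array of control 1, 4 of them brighter and 4 dimmer than every spot kept there, which spanned 9248 to 9631. With marked spots kept, the differences were 0.88 for B2m and 0.31 for Tfrc.

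**Figure D2:**
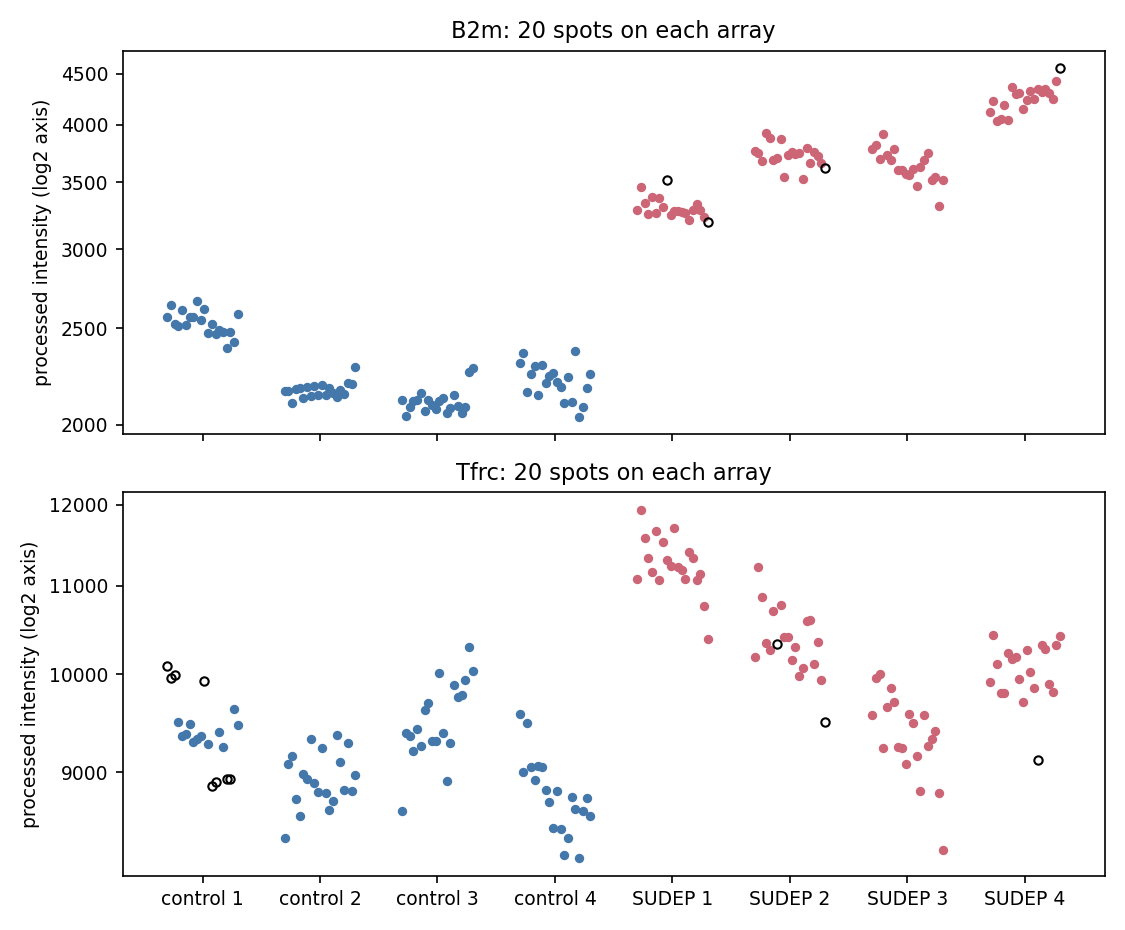
Processed intensity (log2 axis) of the 20 spots of B2m (top) and of Tfrc (bottom) on each of the 8 arrays, unscaled and in order of row on the array; filled points were used, and open black points were marked as outliers by the scanner software. B2m spots of SUDEP arrays lie above all those of control arrays, Tfrc spots overlap between the groups, and the 8 open points of control 1 lie on both sides of its other Tfrc spots.

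The spots also drifted along the rows of an array. From the first to the last row holding a Tfrc spot, the fitted log2 change ran from -0.16 in SUDEP 3 and in control 4 to 0.15 in control 3. For B2m it ran from -0.14 in SUDEP 3 to 0.10 in SUDEP 4. Its sign was the same for both genes on 7 of 8 arrays. These drifts were as large as the smaller gaps between neighbouring mice and well below the B2m gap between the groups.

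The other 13 reference genes, measured by the same number of spots on the same arrays, give the setting for these differences. They code for enzymes, cytoskeleton, ribosome, chaperone and nuclear proteins, and several of them are often used to normalise expression. Their differences between SUDEP and control ran from -0.13 for Gk, glycerol kinase, to 0.28 for Nono, a nuclear RNA-binding protein, with a median of 0.06, and 10 of 13 were above 0. Tfrc lay above Nono by less than the SE of either (0.12 and 0.20). Nono had a larger spread between control mice, with an SD of 0.45, and 10 of 16 pairs had the SUDEP mouse higher. In none of the 13 did more than 14 of 16 pairs do so. Less the median of the 13, B2m was at 0.81 and Tfrc at 0.26.

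Scaled on the mean of these 13 genes instead of the 75th percentile, B2m was at -0.49, -0.64, -0.54 and -0.31 in control mice 1 to 4 and at 0.20, 0.30, 0.25 and 0.53 in SUDEP mice. The groups stayed apart, by 0.82 in the mean. Tfrc was at 1.40, 1.40, 1.63 and 1.68 in control and at 1.97, 1.78, 1.62 and 1.78 in SUDEP mice. The difference of its group means was 0.26, and SUDEP 3 lay below control 3 and control 4.

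**Figure D3:**
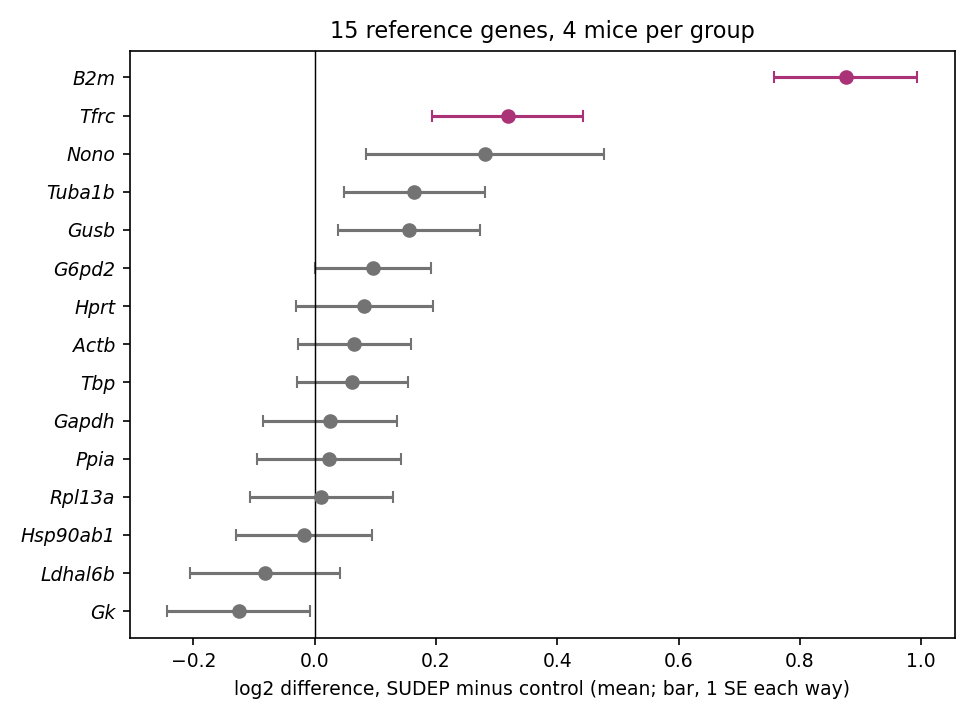
Log2 difference between the means of 4 SUDEP and 4 control mice for the 15 reference genes, scaled to the 75th percentile; points are differences and bars 1 SE each way. B2m (0.88) stands apart from the other genes, and Tfrc (0.32) lies next to Nono (0.28).

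Whether B2m and Tfrc vary together was examined on deviations of each mouse from its own group mean, which leave out the difference between the groups. The deviations had the same sign in 6 of 8 mice. Pearson's r was 0.42 (two-sided exact permutation within groups, p = 0.370) and Spearman's rho 0.40 (exact p = 0.391) over 8 mice. Without SUDEP 4 and control 2, the 2 mice farthest from the median in B2m, r was 0.28 over 6 mice. Without control 2 alone it was 0.08, and without SUDEP 1 alone 0.75. In unscaled values r was -0.27 (exact permutation p = 0.606). Both genes are divided by the same percentile on each array, and with that percentile as a covariate r was -0.28. A relation between the 2 genes within groups was therefore not detectable with 8 mice, and its sign depended on the scaling. Over all 49190 other tested probes with 8 values, 71.7% had a lower r with B2m than Tfrc did.

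**Figure D4:**
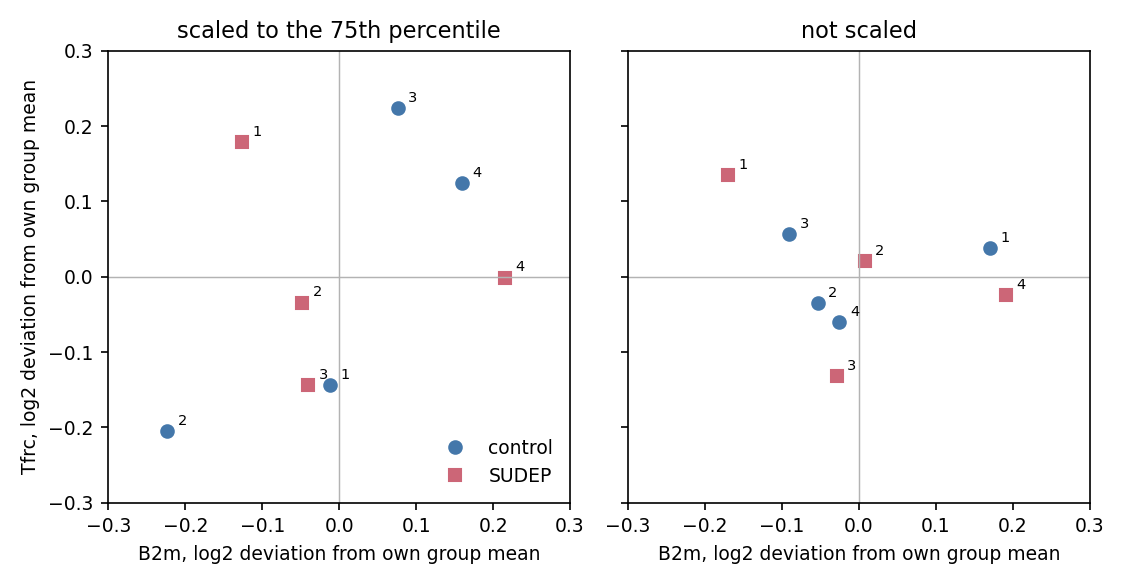
Deviation of Tfrc from its own group mean against that of B2m, in log2 units, for 4 control (circles) and 4 SUDEP mice (squares) with their replicate numbers, scaled to the 75th percentile (left) and unscaled (right). On the left control 2 lies low and control 3 and 4 lie high in both genes (r = 0.42), and on the right r is -0.27.

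Among the other 13 reference genes, those whose deviations were most like those of B2m were Hprt, a purine salvage enzyme (r = 0.81), Rpl13a, a ribosomal protein (0.80), and Tuba1b, an alpha-tubulin (0.71), over 8 mice. The least like was Gk (-0.59). In unscaled values Hprt (0.71) and Rpl13a (0.69) were again the most like. Ldhal6b, a lactate dehydrogenase-like gene, came next there (0.65, from 0.11 scaled), Tuba1b was at 0.54 and Gk at 0.35. Ppia, a cyclophilin gene, was then the least like B2m (-0.75, from 0.37 scaled). For Tfrc the most like were Gapdh, a glycolytic enzyme (0.94), Ppia (0.91) and Rpl13a (0.74), and the least like was again Gk (-0.79). Gapdh (0.79) and Ppia (0.60) were also the most like Tfrc in unscaled values, followed by Actb, beta-actin (0.22). Rpl13a was then at 0.00 and Gk at -0.03, and Ldhal6b was the least like (-0.31). Over 49190 other tested probes, the 5th and 95th percentiles of the scaled r were -0.756 and 0.811 with B2m and -0.757 and 0.712 with Tfrc. The genes named as most and least like B2m in scaled values lay inside its range, and those named for Tfrc outside. All these r values are descriptions over the same 8 arrays, which share the scaling.

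Across the processing alternatives the B2m difference stayed between 0.72 and 0.93 and that of Tfrc between 0.14 and 0.39. In the 18 alternatives that change the values or the mice compared, the B2m groups were apart in each, and the Tfrc groups in 4: quantile scaling, cyclic loess scaling, without control 3 and without SUDEP 3. Where the groups are apart, leaving out mice cannot make them overlap, so for B2m only the changes of scaling, background and spot averaging bear on this. For Tfrc the only pair out of order was SUDEP 3 below control 3, so leaving out either mouse had to set the groups apart. Of all tested probes, 5.61% had SUDEP values all above control without control 3, and 3.25% without SUDEP 3.

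**Figure D5:**
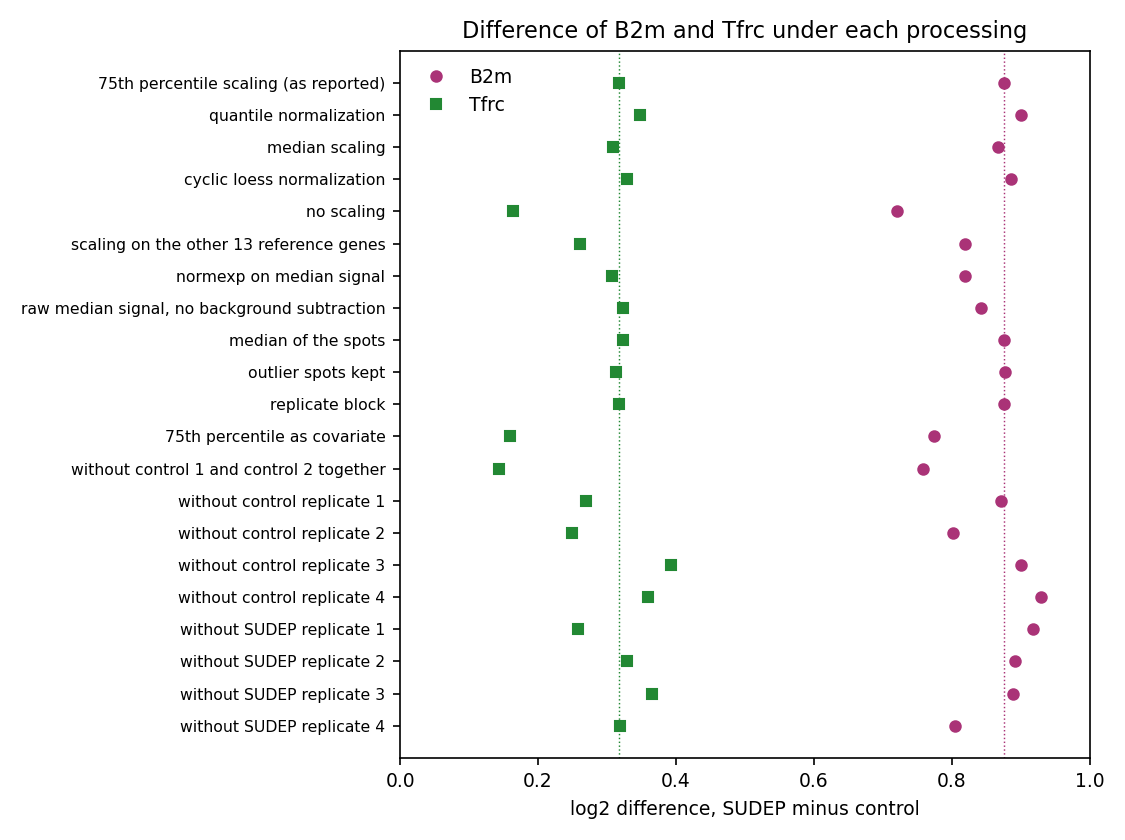
Log2 difference between SUDEP and control for B2m (circles) and Tfrc (squares) under each processing, with the reported setting on top and dotted lines at its values. B2m lies between 0.72 and 0.93 and Tfrc between 0.14 and 0.39, lowest without control 1 and 2.

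The pathways around the genes could not be followed on these arrays. Lists of 32 MHC class I presentation genes, 23 genes of iron uptake, storage and export, 17 interferon-induced genes and 34 cell type markers were drawn up, and the files pair none of these 106 genes with a probe. The heavy chains that join β2-microglobulin, transferrin itself and markers of microglia, endothelium or blood are therefore not reported, and the labelled tissue could not be checked against its markers. Their part in the B2m and Tfrc differences was not tested.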

How the data were processed

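Total RNA was freed of ribosomal RNA and labelled with Cy3 by random priming, per the labels' protocols, and 1 array was hybridised per mouse. The submitters' processing notes name Agilent Feature Extraction 11.0.1.1. Each deposited scanner file gives, per the file headers, every spot's processed intensity (background-subtracted and detrended within the array, not normalized between arrays) as well as its median intensity and that of the background around it. The deposited value table lacks the 15 reference probes and was not used.

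Spots marked as outliers (0.0529% of values over all non-control spots) were left out. Of 160 values per reference gene, 11 were marked for Tfrc, 4 for B2m and 0 to 14 for the others. Log2 processed intensity was averaged over the spots of a probe, and each array's 75th percentile was subtracted. SEs came from limma 3.58.1 (R 4.3.3), fitted with group as the only term over the 49297 probes that rose well above background on 4 or more of the 8 arrays. Deviations from group means were compared by exact permutation of pairings within groups. The fit was tested on simulated data. The number of arrays limits the precision. Probes were named by matching accessions to RefSeq (15 of 15 matched). The 3 most and 1 least similar reference genes were named by r. The members and lists were chosen with earlier results of these data known. Alternatives were other scalings, background corrections, spot averages, a replicate block, a brightness covariate and arrays left out.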

Additional observations from a re-analysis of the deposited data

Results flagged for a closer look

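In 2 of 36 groups of 4 mice examined (the 15 reference genes, 2 measures of array quality and the B2m to Tfrc ratio, in each group), the gap between a single mouse and its nearest neighbour took up most of the group's range, past a limit (Dixon's, 95%) that chance passes in about 1 of 20 groups. Neither was a value of B2m or Tfrc. Ppia, whose deviations were among the most like those of Tfrc, had a scaled log2 intensity of 6.85 in SUDEP 1, while SUDEP 2, 3 and 4 spanned 6.66 to 6.68 (gap 0.918 of the range). SUDEP 1 was also the highest mouse for Tfrc. Tuba1b, among the most like B2m, had 7.03 in SUDEP 2, while SUDEP 1, 3 and 4 spanned 7.20 to 7.23 (gap 0.853 of the range).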

How the results depend on the processing

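Leaving out 1 mouse gave a log2 difference of 0.80 to 0.93 for B2m and of 0.25 to 0.39 for Tfrc, and without control 1 and 2 that of Tfrc was 0.14. The correlation of within-group deviations turned to -0.27 without scaling, -0.28 with the 75th percentile as a covariate and -0.31 without control 1 and 2, and ran from 0.08 to 0.75 with 1 mouse left out. Against 1238 probes with all SUDEP values above all control values there were 181 without scaling, 3572 with normexp, 4916 without control 1 and 2, and 1603 to 2767 with 1 mouse left out; fewer mice make such an order more frequent, and for the other changes the cause was not tested. In the fit with a replicate block the differences stayed at 0.88 and 0.32, which a block cannot change here, and the correlation was 0.22. Same-numbered mice had deviations with r of -0.07, 0.30, 0.00 and 0.16 over 49191 probes, so they were not treated as pairs; the best match of 4 of 8 arrays was the array of the same number. The array code was not run as a block, since its first number is the group and its second the replicate number, and the replicate block and the covariate give no count of ordered values.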
